A study of Homo sapiens with 12 samples.

Results

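The 42 genes described here encode enzymes and membrane proteins of the lysosome. They were listed by symbol, and each had 1 row in the count table of 58735 rows. All 42 entered the tests, which covered the 25873 genes whose counts summed to 10 or more over the 12 libraries. They comprise 1 nuclease (DNASE2), 10 proteases, 7 glycosidases, 8 genes of lipid handling, 5 sulfatases or phosphatases, 5 membrane glycoproteins, 4 genes of ion channels or the proton pump and 2 regulators. The list was drawn up around DNASE2, whose level in THP1 cells was lower in co-culture with control ECs than in mono-culture, to see how the other lysosomal genes behaved. That contrast of DNASE2 is therefore a description and carries no test.

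RNA-sequencing covered 12 libraries of THP1, an established human monocytic leukemia line with a wild-type genotype per the labels, in 4 groups of 3. In mono-culture (replicates 1, 2 and 3) the THP1 cells had no endothelial cells beneath them. In the other groups they sat in transwell inserts with pores of 1 µm above HUVECs, endothelial cells of the umbilical vein. These were control ECs given the solvent DMSO (replicates 1, 2 and 3), senECs made senescent with the topoisomerase inhibitor etoposide (replicates 1, 2 and 5), or senECs given etoposide and EGCG, a green tea catechin (replicates 1, 2 and 5). All 4 groups were kept in complete ECM, the endothelial medium, for 24 h and were then given 100 ng/ml LPS for 2 h, so that mono-culture is also an LPS-stimulated state and no library shows unstimulated cells. The model is 1 monocytic line, senescence was induced by a drug, and the labels do not say whether the replicates are separate cultures, so p-values measure the spread between these libraries. Totals ran from 15439836 to 22092600 counts per library. A gene without a count could be present at up to 0.191 CPM (counts scaled to library size with TMM factors) in the library with the least favourable limit, which covers counting error only. Of 12 monocyte markers, 11 averaged at least 1 CPM, led by PTPRC at 318 CPM. Of 15 endothelial markers, 3 averaged at least 1 CPM (EGFL7 at 21.9 CPM, ESAM and VWF), 1 had no count, and CDH5, the defining cadherin of endothelium, reached at most 1 count in a library. The summed endothelial markers gave 21.6 to 27.8 CPM in mono-culture, 24.6 to 26.3 in control EC co-culture, 25.4 to 33.7 with senECs and 25.2 to 27.9 with EGCG-treated senECs. Most of each sum was EGFL7, at 17.8, 18.6 and 21.7 CPM in mono-culture, which had no endothelial cells, and 30.4 CPM in senEC replicate 5. The sums are therefore no measure of endothelial RNA. The part of these markers in the results below was not tested.

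Lysosomes are the acidic compartment in which cells break down material from phagocytosis, endocytosis and autophagy. A proton pump, the V-ATPase, keeps the lumen acid, and soluble hydrolases cut proteins, glycans, lipids and nucleic acids there, while heavily glycosylated proteins such as LAMP1 line the membrane. Many of these genes carry the E-box CACGTG near their start, within the motif TCACGTGA that is bound by TFEB, a transcription factor that raises lysosomal genes when lysosomes are stressed or nutrients are short. DNASE2 is the acid endonuclease that degrades DNA of engulfed or damaged material, and cells lacking it accumulate DNA that innate immune sensors can detect.

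The windows before the gene starts are shown for DNASE2, on which the results turn, and for 7 lysosomal genes with an E-box, to show how that motif lies in those that carry it. The RefSeq promoter table (GRCh38.p14) holds windows of 300 bases, 250 before and 50 after the start, for 33 of the 42 genes. ARSA, ASAH1, ATP6V1H, CTSB, CTSS, HEXA, LAMP2, LGMN and PSAP had no entry. CACGTG, which reads the same on both strands, was in 10 of the 50 windows of these genes (20%), against 7.26% of all 35116 windows. The longer TCACGTGA, which contains it, was in 5 of the 50 (10.0%), against 0.980% of all windows, and these belonged to ATP6V0D1, CTSA, GAA, LAMP1 and MCOLN1. The DNASE2 window holds no CACGTG, as is the case for 22 of the other 32 genes. It holds 2 copies of the GC box GGGCGG or its reverse complement CCGCCC, a motif of 38 of the 50 windows (76%) and of 45.0% of all windows. Capitals mark the GC boxes in DNASE2 and CACGTG in the others. Each sequence is read on the strand of the gene, and that of DNASE2 ends at the base before its start.
DNASE2 (chr19:12881450-12881699, minus strand): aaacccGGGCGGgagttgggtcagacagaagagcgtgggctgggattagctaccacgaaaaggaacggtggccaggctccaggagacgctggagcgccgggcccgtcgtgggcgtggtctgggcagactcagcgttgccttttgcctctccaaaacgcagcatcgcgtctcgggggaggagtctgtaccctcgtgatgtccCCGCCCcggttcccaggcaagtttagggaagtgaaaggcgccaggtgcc
LAMP1 (chr13:113297032-113297117, plus strand): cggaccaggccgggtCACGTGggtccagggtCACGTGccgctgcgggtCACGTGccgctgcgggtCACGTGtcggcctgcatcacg
GAA (chr17:80101490-80101570, plus strand): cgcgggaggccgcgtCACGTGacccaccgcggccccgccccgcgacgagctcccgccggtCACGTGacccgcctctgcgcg
MCOLN1 (chr19:7522568-7522623, plus strand): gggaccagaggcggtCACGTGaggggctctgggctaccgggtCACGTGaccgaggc
CTSA (chr20:45891278-45891330, plus strand): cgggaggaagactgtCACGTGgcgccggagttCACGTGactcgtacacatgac
ATP6V0D1 (chr16:67481196-67481231, minus strand): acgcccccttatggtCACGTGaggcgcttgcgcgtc
CTSD (chr11:1763954-1763989, minus strand): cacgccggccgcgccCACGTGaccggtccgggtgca
NEU1 (chr6:31862927-31862962, minus strand): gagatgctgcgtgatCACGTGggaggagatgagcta
In LAMP1 the 4 copies shown lie between 192 and 142 bases before the start, and 2 more lie at 28 and 1 bases before it. None of the 4 copies shown lies within TCACGTGA, so the LAMP1 match to that longer motif is outside the stretch printed. MCOLN1 has copies at 41 and 14 bases before its start, CTSA at 42 and 25, and GAA at 76 and 31. A match of letters is a description and does not show that a factor was bound in these cells.

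DNASE2 was lower in every co-culture library than in every mono-culture library. The gene lies at chr19:12875211-12881468 on the minus strand (GRCh38, GENCODE 29). Its level in mono-culture was 23.9, 29.1 and 25.6 CPM in replicates 1, 2 and 3. With control ECs it was 12.3, 13.0 and 7.95 CPM. With senECs the values were 13.2, 18.6 and 11.7 CPM in replicates 1, 2 and 5, and with EGCG-treated senECs 13.5, 14.9 and 12.7 CPM. The lowest mono-culture library thus exceeded the highest co-culture library. Raw counts ran from 143 to 540 per library. Of its exonic bases 7.58% are shared with AC020934.2 on the opposite strand, an entry without a count in any library. In bulk RNA, a lower level in all cells and a smaller share of cells with the transcript cannot be told apart.

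Against mono-culture, DNASE2 was 2.35-fold lower with control ECs (log2 fold change -1.23, SE 0.187), 1.81-fold lower with senECs (-0.85, SE 0.185) and 1.91-fold lower with EGCG-treated senECs (-0.94, SE 0.186). The first value chose the gene. The other comparisons used the same mono-culture libraries and so are not separate evidence for a high mono-culture level. By edgeR's quasi-likelihood test with Benjamini-Hochberg adjustment over all genes, the adjusted p was 0.0384 with EGCG-treated senECs and 0.0522 with senECs. The threshold was 0.05. Both values reuse the mono-culture libraries that chose the gene, so they and the refits below are a description. By DESeq2 the decrease with senECs passed (adjusted p = 0.00323), and in edgeR it passed when every gene with at least 1 count was tested (adjusted p = 5.41e-05), and without control EC replicate 3 (adjusted p = 0.0271) or senEC replicate 2 (adjusted p = 0.0468). The decrease with senECs also passed in both edgeR fits with a replicate block, described at the end. The edgeR call with EGCG-treated senECs was lost without mono-culture replicate 1, 2 or 3, control EC replicate 2, or replicate 1, 2 or 5 of EGCG-treated senECs, at adjusted p from 0.0542 to 0.253. It was also lost when every library had to hold at least 10 counts (adjusted p = 0.0726) and without replicate 1 in every group (adjusted p = 0.0618). Over all refits without 1 library, the log2 fold change ran from -1.37 to -1.05 for control ECs, from -1.07 to -0.72 for senECs and from -0.999 to -0.85 for EGCG-treated senECs.

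The co-cultures did not separate from each other in DNASE2. Its level with senECs was above that with control ECs by a log2 fold change of 0.38 (SE 0.188, adjusted p = 0.728, edgeR), and the libraries overlapped. EGCG-treated senECs differed from senECs by -0.08 (SE 0.188, adjusted p = 1) and from control ECs by 0.30 (SE 0.189, adjusted p = 0.979). The value for EGCG-treated senECs against senECs turned to 0.14 without senEC replicate 2, the highest of the co-culture libraries.

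**Figure D1:**
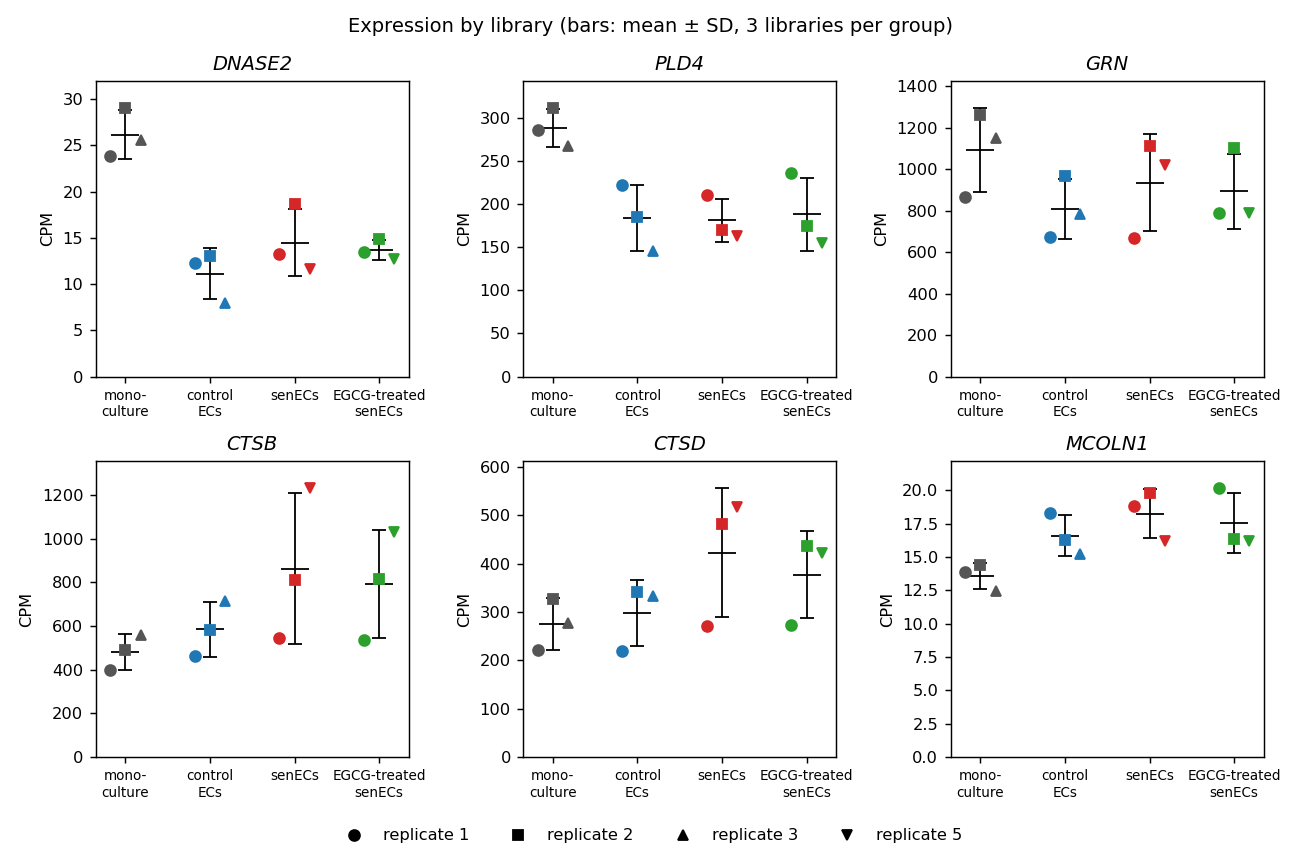
Level in CPM (vertical axis, from 0) of DNASE2, PLD4, GRN, CTSB, CTSD and MCOLN1 in each of the 12 libraries, by group, with symbols for the replicate number and bars for the mean ± SD of 3 libraries. The 3 mono-culture points of DNASE2 (23.9 to 29.1 CPM) lie above all 9 co-culture points (7.95 to 18.6 CPM), whereas CTSB and CTSD of replicate 1 stay low in every group.

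None of the other 41 genes passed the test in any of the 6 comparisons, by edgeR or DESeq2 with all 12 libraries, no replicate block and the filter at 10 counts. In control ECs against mono-culture, edgeR called 1 of the 42 genes, DNASE2, beside 0.143% of all genes tested, a count that the choice of DNASE2 fixes. Of the other 41, edgeR and DESeq2 called 0, and the smallest adjusted p in edgeR was 0.731. At an unadjusted p under 0.05, 3 of the 41 were past the threshold (GRN, ASAH1 and IDS, all lower), beside 6.52% of all genes. Among the 14397 genes with a mean of at least 1 CPM, which include 40 of the 42, it was 1148. The median log2 fold change of the 41 was -0.08 (all genes 0.01), with 14 of 41 above 0. The libraries did not overlap for ACP2 and MCOLN1, which were higher (6.25% of all genes), and for DNASE2, which was lower (6.51% of all genes).

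With senECs against mono-culture, edgeR called 0 of the 42 genes (0.309% of all genes), and DESeq2 called DNASE2. That call reuses the mono-culture libraries that chose DNASE2. Unadjusted, 9 of 42 were past 0.05, beside 11.0% of all genes and 2353 of the 14397 genes with a mean of at least 1 CPM. The 9 were DNASE2, which was lower, and CTSB, CTSL, MCOLN1, CTSD, ATP6AP1, LAMP1, CD63 and CTSA, which were higher. The smallest adjusted p of the 41 was 0.181, for CTSB. The median over the 41 was 0.11 (all genes -0.02), with 30 above 0. The libraries did not overlap for MCOLN1, ATP6AP1 and TFEB on the higher side (8.18% of all genes), and for DNASE2 and ACP5 on the lower side (8.50%).

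With EGCG-treated senECs against mono-culture, DNASE2 was the 1 gene of 42 that edgeR and DESeq2 called (edgeR 0.213% of all genes). Those calls reuse the mono-culture libraries that chose DNASE2. Of the 42, 7 were past an unadjusted p of 0.05, beside 8.58% of all genes and 1633 of the 14397 with a mean of at least 1 CPM. The 7 were DNASE2 on the lower side and CTSL, CTSB, MCOLN1, CTSA, ATP6AP1 and ACP2 on the higher side. The smallest adjusted p of the 41 was 0.301, and their median was 0.07 (all genes 0.00), with 29 above 0. The libraries did not overlap for 5 genes that were higher (CTSA, NPC1, ACP2, MCOLN1 and ATP6AP1, 6.40% of all genes) and for 2 that were lower (DNASE2 and ACP5, 7.72%). Of the 14397 genes with a mean of at least 1 CPM, 1267 separated on the higher side and 1259 on the lower side. The shares of 5 of 42 and 2 of 42 were not tested against these, and no excess is read from them.

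**Figure D2:**
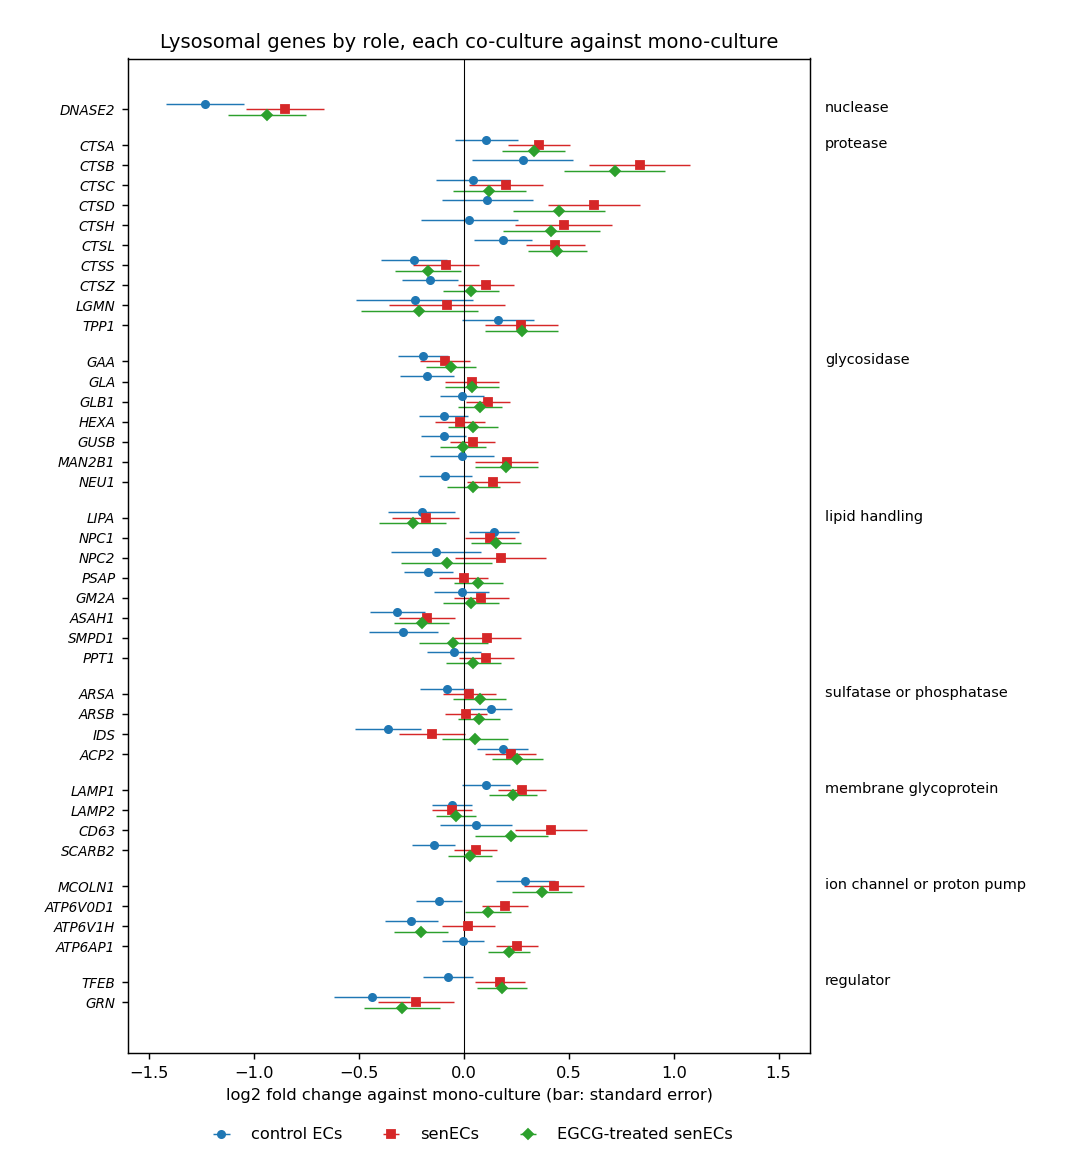
Log2 fold change against mono-culture (horizontal axis, bars are 1 standard error from edgeR) of the 40 lysosomal genes with a mean of at least 1 CPM, by role, with 1 symbol for each of the 3 co-cultures. DNASE2 lies at -1.23, -0.85 and -0.94, apart from all the others, of which CTSB reaches 0.84 and GRN -0.44.

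Among the 10 proteases, values with senECs lay mostly above mono-culture. Their median log2 fold change was 0.08 with control ECs, 0.32 with senECs and 0.30 for EGCG-treated senECs, with 7, 8 and 8 of 10 above 0. None of the 10 was called by edgeR or DESeq2 with all 12 libraries, no replicate block and the filter at 10 counts. CTSB encodes cathepsin B, a cysteine protease (chr8:11842524-11869448, minus strand). Its level was 396, 490.2 and 559.9 CPM in mono-culture, 462, 581 and 713 CPM with control ECs, 545, 811 and 1231 CPM with senECs and 536, 814 and 1031 CPM with EGCG-treated senECs. Replicate 1 was the lowest library of each group, and mono-culture and senECs overlapped because of it. The log2 fold change against mono-culture was 0.28 (SE 0.239) with control ECs, 0.84 (SE 0.241, adjusted p = 0.181, edgeR) with senECs and 0.72 (SE 0.240, adjusted p = 0.351) with EGCG-treated senECs.

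CTSD, the aspartic protease cathepsin D (chr11:1752752-1764573, minus strand), also had replicate 1 as the lowest library of each group. It stood at 221, 328 and 277 CPM in mono-culture, at 219, 340.3 and 334 CPM with control ECs, at 270.3, 482 and 516 CPM with senECs and at 274, 436 and 421 CPM with EGCG-treated senECs. Here too replicate 1 of senECs lay within the range of mono-culture. Its log2 fold change with senECs was 0.62 (SE 0.218, adjusted p = 0.295, edgeR). Without senEC replicate 1, edgeR called CTSB and CTSD higher with senECs than in mono-culture (log2 fold change 1.08 and 0.86, adjusted p = 0.0244 and 0.0400), and without replicate 1 in every group, a choice made after the data were seen, it also called both (0.95 and 0.72, adjusted p = 0.00687 and 0.00535). With every gene of at least 1 count tested, it called both with senECs and EGCG-treated senECs against mono-culture and with senECs against control ECs. CTSD shares 41.7% of its exonic bases with AC068580.4 on the same strand, an entry with a mean of 0.709 CPM, so that its counts depend on how shared reads were assigned, which is not given in the sources used here.

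CTSL, cathepsin L, had 67.0, 84.2 and 71.2 CPM in mono-culture, 79.7, 85.2 and 88.5 CPM with control ECs, 82.0, 96.0 and 123 CPM with senECs and 84.1, 113 and 106 CPM with EGCG-treated senECs. Of the mono-culture libraries, only replicate 2 reached into the range of the co-cultures with senECs. The log2 fold change was 0.44 (SE 0.139, adjusted p = 0.240) with senECs and 0.45 (SE 0.139, adjusted p = 0.301) with EGCG-treated senECs by edgeR. CTSA, the protective protein that stabilizes beta-galactosidase and neuraminidase, stood at 0.36 and 0.33. CTSH, an aminopeptidase, stood at 0.03 with control ECs, 0.48 with senECs and 0.42 for EGCG-treated senECs. CTSS, which processes the invariant chain of MHC class II, was on the other side of 0 with -0.24, -0.08 and -0.17.

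The 7 glycosidases stayed near mono-culture. With control ECs all 7 had a log2 fold change below 0 (median -0.10, from -0.19 to -0.01), but none was past an unadjusted p of 0.05. With senECs the median was 0.04 and with EGCG-treated senECs 0.05, with 5 of 7 above 0 in both. GUSB, the beta-glucuronidase whose transcript is often used as a reference, had a mean of 225 ± 19.3 CPM in mono-culture, 211 ± 13.1 in control EC co-culture, 232 ± 32.3 with senECs and 224 ± 13.1 with EGCG-treated senECs (SD, n = 3). Its log2 fold changes against mono-culture were -0.10, 0.04 and 0.00.

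Of the 8 genes of lipid handling, 7 were below mono-culture with control ECs (median -0.15). ASAH1, the acid ceramidase, had the largest distance, from 141 ± 22.7 CPM in mono-culture to 113 ± 9.09 CPM with control ECs (log2 fold change -0.32, SE 0.132, adjusted p = 0.734, edgeR). With senECs the median was 0.10 and with EGCG-treated senECs -0.01. PPT1, the thioesterase that removes palmitate from proteins, was the most abundant of the 42 transcripts, at 3861 to 4719 CPM in mono-culture, 3686 to 4608 in control EC co-culture, 4017 to 5227 with senECs and 3726 to 5096 with EGCG-treated senECs. These ranges overlap throughout. It shares 23.4% of its exonic bases with CAP1 on the opposite strand, itself at a mean of 3701 CPM, and the strand setting of the counting is not given, so reads of the shared part cannot be assigned with certainty.

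Among the 5 sulfatases and phosphatases the median was -0.08 with control ECs, 0.01 with senECs and 0.07 for EGCG-treated senECs. The near-absent ACP5 is included and lowers these medians. ARSA, arylsulfatase A, had log2 fold changes of -0.08, 0.03 and 0.08. IDS, the iduronate sulfatase, had 36.3, 51.1 and 61.4 CPM in mono-culture and 35.9, 37.9 and 42.2 CPM with control ECs, which overlap, and its log2 fold change was -0.36 (SE 0.158, adjusted p = 0.750, edgeR). ACP2, a lysosomal acid phosphatase, had a narrow range in mono-culture (23.7 to 24.3 CPM) and lay above it with control ECs (26.6 to 28.6 CPM) and EGCG-treated senECs (26.8 to 30.2 CPM), with log2 fold changes of 0.19 (SE 0.120, adjusted p = 0.876) and 0.26 (SE 0.121, adjusted p = 0.580). With senECs it ran from 23.9 to 32.1 CPM. ACP5, the tartrate-resistant phosphatase, was near the limit of detection with 0 to 14 counts per library, at 0.538 to 0.771 CPM in mono-culture and 0 to 0.556 CPM in the co-cultures. No fold is given for it.

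Membrane glycoproteins had medians of 0.06 with control ECs, 0.28 with senECs and 0.23 for EGCG-treated senECs. The near-absent CD68 is included and stood on the higher side in all 3, so these medians of 5 genes are raised by it. CD63, a tetraspanin of late endosomes and exosomes, had means of 264 ± 45.9 CPM in mono-culture, 275 ± 38 in control EC co-culture, 352 ± 96.3 with senECs and 309 ± 54.7 with EGCG-treated senECs (SD, n = 3). The distance of senECs from mono-culture was 0.42 (SE 0.172, adjusted p = 0.385, edgeR). LAMP1, a main constituent of the lysosomal membrane with 4 E-boxes shown above, stood at 0.11, 0.28 and 0.23. LAMP2 stood at -0.06, -0.05 and -0.04. CD68, used as a macrophage marker, had 2 to 16 counts per library and at most 0.857 CPM, and no fold is given. It shares 81.7% of its exonic bases with AC016876.2 on the same strand, so its low count may depend on how reads of both genes were assigned, which was not tested.

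Of the ion channel and proton pump genes, MCOLN1 was above mono-culture in every co-culture library. It encodes TRPML1, the channel that releases calcium from lysosomes (chr19:7522626-7534009, plus strand). Its level was 13.9, 14.4 and 12.4 CPM in mono-culture, 18.3, 16.3 and 15.2 CPM with control ECs, 18.8, 19.8 and 16.2 CPM with senECs and 20.2, 16.3 and 16.2 CPM with EGCG-treated senECs. The log2 fold changes were 0.29 (SE 0.141, adjusted p = 0.773), 0.43 (SE 0.142, adjusted p = 0.263) and 0.37 (SE 0.142, adjusted p = 0.476) by edgeR, none past the threshold, and the 3 comparisons share the mono-culture libraries. ATP6AP1, an accessory subunit of the V-ATPase, had 198 to 209.6 CPM in mono-culture, 195 to 210.5 in control EC co-culture, 218 to 275 with senECs and 219.9 to 247 with EGCG-treated senECs. Its values with control ECs matched mono-culture (log2 fold change 0.00, SE 0.10), whereas all libraries of both senEC groups lay higher, by 0.25 (SE 0.10, adjusted p = 0.364) and 0.21 (SE 0.10, adjusted p = 0.579).

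Of the 2 regulators, GRN had a lower mean in all co-cultures than in mono-culture and TFEB did not, none of it past the threshold in the main fits. GRN encodes progranulin, a secreted precursor whose granulins support lysosomal enzymes (chr17:44345086-44353102, plus strand). It had 868, 1261 and 1153 CPM in mono-culture, 675, 966 and 786 CPM with control ECs, 671, 1113 and 1022 CPM with senECs and 788, 1102 and 790.1 CPM with EGCG-treated senECs. The libraries overlapped in every comparison. The log2 fold changes were -0.44 (SE 0.181, adjusted p = 0.731), -0.23 (SE 0.181, adjusted p = 0.699) and -0.29 (SE 0.181, adjusted p = 0.681) by edgeR. TFEB had means of 54.7 ± 2.89, 51.9 ± 6.09, 61.7 ± 6.47 and 62.0 ± 8.48 CPM in the 4 groups in the same order (SD, n = 3), and senECs did not overlap with mono-culture (log2 fold change 0.17, SE 0.120, adjusted p = 0.642). The genes with CACGTG before their start had a median log2 fold change of 0.08, 0.24 and 0.17 in the 3 comparisons with mono-culture (10 genes), against -0.03, 0.12 and 0.07 for the 22 without it, DNASE2 left out and the near-absent ACP5 and CD68 included. Between the co-cultures the genes with it were not higher. For senECs against control ECs the medians with and without it were 0.199 and 0.205. For EGCG-treated senECs they were -0.049 and -0.038 against senECs, and 0.133 and 0.158 against control ECs. These medians are a description with no test.

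None of the 42 genes passed the test between senECs and control ECs in the main fits, though most values were above 0 by small amounts. CTSB and CTSD did pass in both edgeR fits with a replicate block and when every gene of at least 1 count was tested. All calls of those fits are described at the end. Of the 42, 38 had a log2 fold change above 0 (90.5%), beside 49.2% of all genes tested and 55.8% of the 14397 genes with a mean of at least 1 CPM. The median was 0.17 (all genes -0.01), and it was 0.25 for proteases, 0.14 for glycosidases, 0.15 for lipid handling, 0.04 for sulfatases and phosphatases (ACP5 included), 0.17 for membrane glycoproteins (CD68 included), 0.26 for channels and pump and 0.23 for regulators. These genes vary together between libraries, as described below, so the signs are not 42 separate observations and carry no test. In the main fits, no gene of the table was called by edgeR or DESeq2 (0% of all genes). Unadjusted, 6 of the 42 were past 0.05, all higher (ATP6V0D1, ATP6AP1, SMPD1, CTSB, CTSD and ATP6V1H). This stood beside 6.61% of all genes and 1151 of the 14397 genes. The libraries did not overlap for SCARB2, ATP6V0D1, ATP6V1H and ATP6AP1, all higher (5.31% of all genes), and for none that was lower (5.66%).

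The 3 V-ATPase genes on the list were among these 4. Further subunits are in the second list described below, and their single values are not given. Of its 98 genes tested, 8 separated on the higher side and 1 on the lower. ATP6V0D1, a subunit of the membrane sector, had 82.4, 96.0 and 93.1 CPM with control ECs and 98.7, 115 and 124 CPM with senECs (log2 fold change 0.32, SE 0.109, adjusted p = 0.728, edgeR). ATP6V1H, a regulatory subunit of the cytosolic sector, had 27.5, 28.7 and 29.2 CPM with control ECs and 30.1, 36.4 and 36.6 CPM with senECs (0.27, SE 0.126, adjusted p = 0.728). ATP6AP1 stood at 0.25 (SE 0.0999, adjusted p = 0.728). In mono-culture ATP6V0D1 had 88.9 to 106 CPM and ATP6V1H 28.5 to 38.5 CPM, ranges that overlap with both co-cultures. By size, CTSB (0.56, SE 0.240), CTSD (0.51, SE 0.218) and CTSH (0.45, SE 0.231) led, each with overlapping libraries and an adjusted p of 0.728.

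No lysosomal gene differed past the threshold between EGCG-treated senECs and senECs. By edgeR and DESeq2, 0 of the 42 were called (0% of all genes), none was past an unadjusted p of 0.05 (2.22% of all genes), and no gene's libraries separated on the higher side (3.17%) or the lower side (2.31%). The median was -0.04 (all genes 0.00), with 28 of 42 below 0. Among the 40 genes with a mean of at least 1 CPM, the 3 largest distances were -0.26 for NPC2, which binds cholesterol in the lumen (SE 0.216), -0.22 for ATP6V1H (SE 0.126) and 0.21 for IDS (SE 0.157), each at an adjusted p of 1. NPC2 had 34.6, 53.6 and 71.3 CPM with senECs and 34.4, 48.7 and 50.2 CPM with EGCG-treated senECs, and without senEC replicate 5 its difference was 0.01. Set against control ECs, the co-culture with EGCG-treated senECs had 39 of 42 above 0 with a median of 0.14 (all genes 0.00), and 0 were called by edgeR or DESeq2 in the main fits (0% of all genes). Unadjusted, IDS, ATP6AP1, ATP6V0D1 and TFEB were higher, 4 of 42 beside 4.55% of all genes and 544 of the 14397 with a mean of at least 1 CPM. The libraries of IDS, ATP6V0D1 and ATP6AP1 did not overlap, all higher (4.04% of all genes), and none was lower (5.45%). IDS was the furthest of the 3, at 35.9 to 42.2 CPM with control ECs and 47.3 to 54.7 CPM with EGCG-treated senECs (log2 fold change 0.42, SE 0.158, adjusted p = 0.979, edgeR).

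The lysosomal genes also varied together within groups. Replicate 1 was the lowest library of its group for 32 of the 42 genes in mono-culture, 31 in control EC co-culture, 34 with senECs and 28 with EGCG-treated senECs, whereas among the 14397 genes with a mean of at least 1 CPM it was the lowest for 35.8%, 33.5%, 36.2% and 34.5%. SenEC replicate 5 was the highest of its group for 31 of the 42, beside 42.8% of those genes. The median deviation of the 42 genes from their mean log2 CPM was -0.13 to -0.11 in the replicates 1 of mono-culture, senECs and EGCG-treated senECs and -0.21 in that of control ECs. It was 0.23 in senEC replicate 5, while the median over all genes stayed between -0.03 and 0.02 in every library. The share of counts that fell on the 42 genes ran from 0.964% in control EC replicate 1 to 1.45% in senEC replicate 5. Over the 12 libraries, 668 of the 780 pairs among 40 of these genes had a Pearson r above 0, with a median of 0.49, as a description of points that share groups and replicate numbers. These coefficients include differences between groups. Pairs among all genes were not computed, so the share cannot be called particular to lysosomal genes. DNASE2 had a median r of 0.01 to the others, against 0.65 for CTSB. The value for DNASE2 reuses the difference from mono-culture that chose the gene, so it is a description. The summed monocyte markers also had replicate 1 as the lowest library of each group (1061, 1093, 1138 and 1152 CPM) and senEC replicate 5 as the highest of all (1505 CPM). One of them, CD14, the co-receptor for LPS, had 5.90 to 11.0 CPM in mono-culture, 12.4 to 26.2 in control EC co-culture, 16.6 to 65.7 with senECs and 12.8 to 41.6 with EGCG-treated senECs, with replicate 1 the lowest each time. CD14 does not stand for all 12 markers. ITGAX averaged 58.6 CPM in mono-culture and 47.2, 46.4 and 48.2 in the co-cultures in the same order, with senEC replicate 5 the lowest library (42.4 CPM). CSF1R averaged 78.5 CPM in mono-culture and 58.4, 69.2 and 71.2 in the co-cultures. The part of these markers in the difference between senECs and control ECs was not tested.

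**Figure D3:**
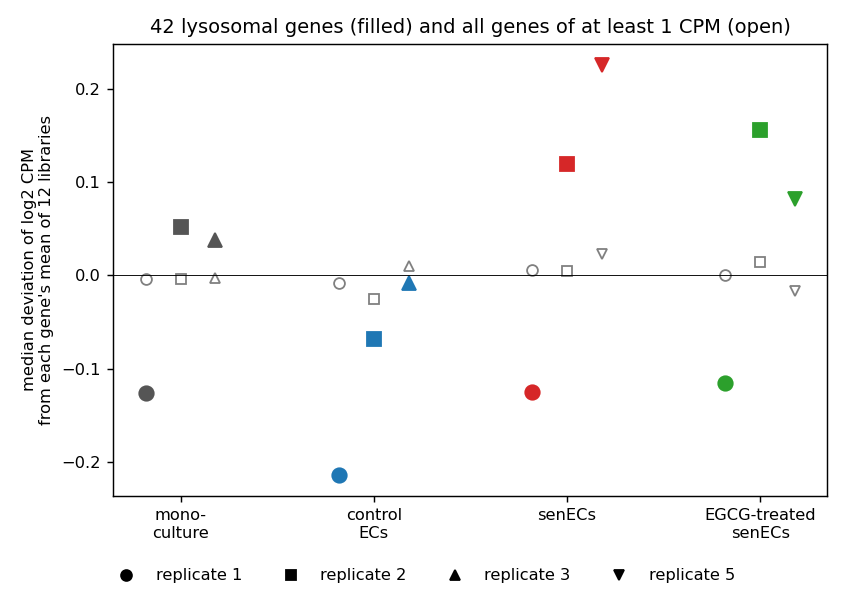
Median deviation of log2 CPM from each gene's mean over the 12 libraries (vertical axis), for the 42 lysosomal genes (filled) and for all genes with a mean of at least 1 CPM (open), by group and replicate. The filled points of replicate 1 are the lowest of each group (-0.21 with control ECs) and that of senEC replicate 5 is the highest of all (0.23), while the open points stay near 0.

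The small medians depended on single libraries. The median of the 42 genes for senECs against mono-culture was 0.11 and ran from -0.01 when senEC replicate 5 was left out to 0.21 when senEC replicate 1 was. For senECs against control ECs it stayed above 0, from 0.10 to 0.27, with the same libraries left out. For control ECs against mono-culture it stayed below 0, from -0.13 when control EC replicate 3 was left out to -0.03 when replicate 1 of that group was. For EGCG-treated senECs against mono-culture it ran from 0.01 without mono-culture replicate 1 to 0.11 without mono-culture replicate 2. For EGCG-treated senECs against senECs it ran from -0.14 to 0.05, again without senEC replicates 1 and 5. Between EGCG-treated senECs and control ECs it stayed above 0, from 0.10 without control EC replicate 1 to 0.21 without replicate 1 of EGCG-treated senECs.

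Per length, the 42 transcripts covered a wide range. FPKM was computed from the counts and the exonic length in GENCODE 29. PPT1 was the highest with a mean of 864 FPKM, followed within the other roles by CTSZ (289 FPKM), GRN (253 FPKM), CD63 (114 FPKM), GUSB (55.8 FPKM), ATP6AP1 (45.6 FPKM) and ARSA (11.2 FPKM). CTSZ is a carboxypeptidase of the cathepsin family, and its log2 fold changes against mono-culture were -0.16, 0.11 and 0.03. DNASE2 had a mean of 6.85 FPKM. The lowest of the proteases was LGMN, an asparaginyl endopeptidase, at 0.729 FPKM, and ACP5 (0.119 FPKM) and CD68 (0.175 FPKM) were at the bottom. Of the 42 genes, 18 share exonic bases with another gene, 9 of them with a gene on the same strand.

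**Figure D4:**
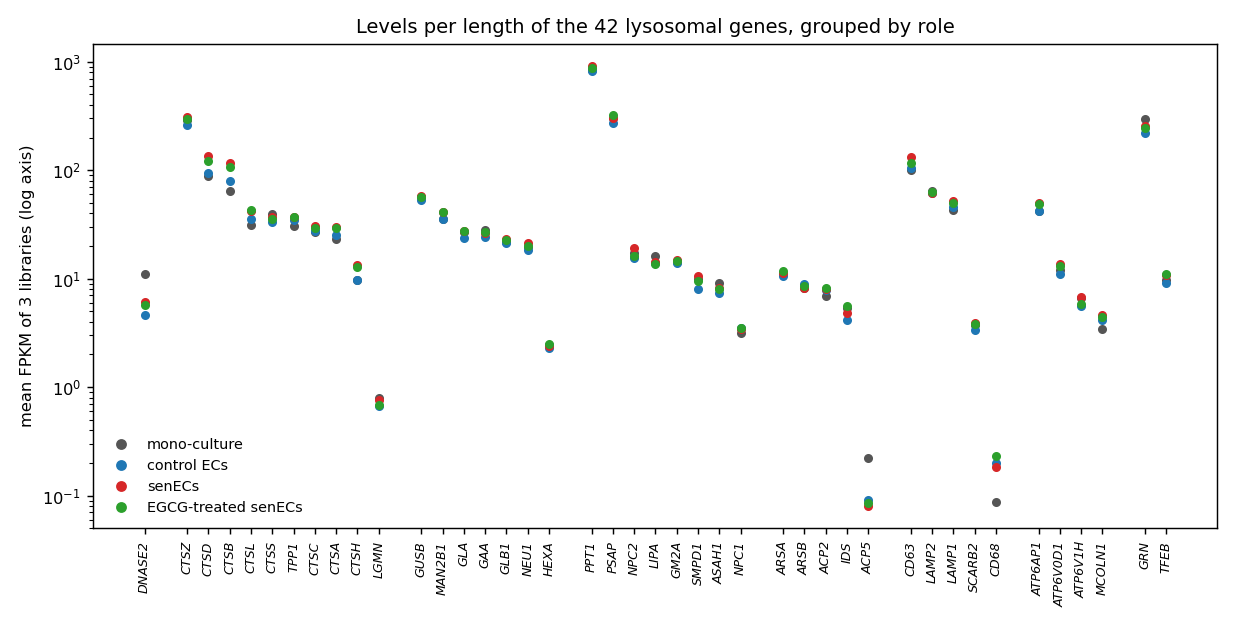
Mean FPKM of 3 libraries per group (vertical log axis) of the 42 lysosomal genes, grouped by role and ordered by level. Groups nearly coincide for most genes, while DNASE2 (overall mean 6.85 FPKM) stands apart in mono-culture.

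A second list of 99 lysosomal genes (hydrolases, nucleases, V-ATPase subunits, transporters, sorting receptors and regulators) was fitted in the same model, and 98 of them were tested. By edgeR with the filter at 10 counts, all 12 libraries and no replicate block, 0 of 98 were called in each of the 6 comparisons. By DESeq2, 1 was called with control ECs, 1 with senECs and 3 for EGCG-treated senECs, each against mono-culture and all lower, and 0 among the co-cultures. Of all 25873 genes, DESeq2 called 120, 347 and 230 against mono-culture and 0 among the co-cultures. Unadjusted, 11, 14 and 9 of 98 were past 0.05 in edgeR against mono-culture, and 1, 8 and 4 of them were higher. This stood beside 6.52%, 11.0% and 8.58% of all genes. Of the 14397 genes with a mean of at least 1 CPM, 1148, 2353 and 1633 were past it. The counts were 8 for senECs against control ECs (7 higher, 6.61% of all genes), 0 between EGCG-treated senECs and senECs (2.22%), and 2 between EGCG-treated senECs and control ECs (4.55%). With every gene of at least 1 count in the fit, edgeR called 2, 4 and 4 of 99 against mono-culture and 0 among the co-cultures. Of all 34767 genes in that fit, 223, 588 and 377 were called against mono-culture. The medians were -0.05, 0.04 and 0.01 against mono-culture and 0.10 for senECs against control ECs.

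The 3 genes of this second list that DESeq2 called were PLD4, CTSO and FUCA1, named after their values were seen. PLD4, an endolysosomal exonuclease that degrades single-stranded nucleic acid (chr14:104924713-104937790, plus strand), was called in all 3 comparisons with mono-culture. It had 286, 312 and 267 CPM in mono-culture, 222, 185 and 145 CPM with control ECs, 210.1, 170.1 and 163 CPM with senECs and 236, 175 and 155 CPM with EGCG-treated senECs. As with DNASE2, no co-culture library reached the lowest mono-culture library. The log2 fold changes in edgeR were -0.65 (SE 0.155, adjusted p = 0.159), -0.67 (SE 0.155, adjusted p = 0.0726) and -0.61 (SE 0.155, adjusted p = 0.138), and in DESeq2 -0.64, -0.67 and -0.61 (adjusted p = 0.0289, 0.00714 and 0.0265). The 3 comparisons share the mono-culture libraries. In edgeR, PLD4 was called in all 3 comparisons when every gene with at least 1 count was tested (adjusted p = 1.46e-05, 3.48e-06 and 2.28e-05) and without replicate 1 in every group (adjusted p = 0.00791, 0.00519 and 0.00539). It was also called with senECs without control EC replicate 3 (adjusted p = 0.0482), senEC replicate 1 (adjusted p = 0.0303) or replicate 1 of EGCG-treated senECs (adjusted p = 0.0306), and with EGCG-treated senECs without their replicate 1 (adjusted p = 0.0293). For the other nucleases of the list the log2 fold changes were smaller. PLD3, a relative of PLD4, stood at -0.11, 0.12 and -0.06, RNASET2, an acid ribonuclease, at -0.18, -0.08 and -0.11, and DNASE2B had 1 count in 1 library. CTSO, a cysteine protease, and FUCA1, the alpha-fucosidase, were called by DESeq2 with EGCG-treated senECs, at -0.80 (SE 0.202, adjusted p = 0.141) and -0.63 (SE 0.168, adjusted p = 0.177) in edgeR.

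By likeness over the 12 libraries, the genes closest to DNASE2 were CD1D (Pearson r of log2 CPM 0.96), PLCB2, LINC00205, KIAA0513 and NHSL2 (each 0.92), out of 14396 genes compared. The 12 points share groups and libraries, and the coefficients are a description. CD1D, which presents lipid antigens, had mean levels of 331, 206, 221 and 221 CPM in the 4 groups, mono-culture first. Among the other lysosomal genes on the list, the closest were GRN (0.63, rank 552) and ASAH1 (0.60, rank 682), and the furthest was ACP2 (-0.64).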

How the data were processed

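RNA of THP1 cells in mono-culture or co-culture was sequenced in 12 libraries. What the authors deposited are unnormalized counts of reads, 1 row for each gene symbol. The submitters' processing notes name HISAT2 and hg38, and the counting program, its strand setting and the annotation are not given in the sources used here. Rows matched GENCODE 29. The count table has 4 further columns that match no described sample, and these were not used. Symbols shared by several rows (175) were kept as separate rows, and no row lacked a gene name. Replicates differed by more than sampling noise (chi-square per degree of freedom 10.3 to 38.2).

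Genes whose counts summed to 10 or more were tested with edgeR 4.0.16 (quasi-likelihood, TMM with factors from 0.912 to 1.04, Benjamini-Hochberg adjustment, threshold 0.05) in R 4.3.3. The model held the group of all 12 libraries. SE is the log2 fold change over the square root of F, and log2 CPM adds a pseudocount of 2. Alternatives were DESeq2 1.42.0, its size factors in edgeR, other count filters, the 6 libraries compared, a replicate block and leaving out libraries. Scripts were tested on simulated data. The genes named are DNASE2, every called gene, the 3 with the largest change per comparison among those of at least 1 CPM, the member of each role with the highest FPKM, those under 1 CPM and the 5 genes most like DNASE2. Others, such as those whose groups did not overlap, were named after their values were seen. The 42 genes and the second list were chosen with earlier results of these data known. Figures used matplotlib 3.10.9.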

Additional observations from a re-analysis of the deposited data

How the results depend on the processing

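The medians of the 42 genes moved by less than the spread between replicates under every alternative run. Leaving out 1 of 3 libraries can hardly exceed that bound, so it does not show that the medians are stable. They depended on single libraries, as given above. Of the 860 alternative values of single genes, 780 kept direction and side of the threshold, 68 passed it newly, 10 no longer passed it and 2 turned sign. Those 2 were DNASE2 (0.14 without senEC replicate 2) and NPC2 (0.012 without senEC replicate 5), both in EGCG-treated senECs against senECs, where leaving out 1 library gave -0.22 to 0.14 and -0.49 to 0.012. The number of the 42 genes called was 1, 0, 1, 0, 0 and 0 (control ECs, senECs and EGCG-treated senECs against mono-culture, senECs against control ECs, EGCG-treated senECs against senECs and against control ECs). When every gene with at least 1 count entered edgeR, it was 2, 6, 5, 3, 0 and 0, with 223, 588, 377, 114, 14 and 43 of all genes called in place of 37, 80, 55, 0, 0 and 0. The cause was not tested. DESeq2 called 1, 1, 1, 0, 0 and 0, with 120, 347, 230, 0, 0 and 0 of all genes. Requiring 10 counts in every library gave 1, 0, 0, 0, 0 and 0, with 34, 60, 36, 0, 0 and 0 of 13903 genes. With only the 6 libraries compared, 20 of all genes were called for senECs and 35 for EGCG-treated senECs against mono-culture. Without replicate 1 in every group (chosen after seeing the data), senECs against mono-culture had 2 (CTSB and CTSD, with 175 of 24314 genes called) and EGCG-treated senECs had 1 (CTSB, with 89). Leaving out 1 library gave 0 to 1 for control ECs (0 without mono-culture replicate 2), 0 to 2 for senECs and, with EGCG, 0 to 1, all against mono-culture, and 0 among the co-cultures.

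The replicate numbers did not meet the rule set for pairing, that every same-numbered pair correlate in its deviations over 0.1: of 14 pairs, which ran from 0.0319 to 0.577, 10 did. The 6 pairs of replicate 1 did, at 0.457 to 0.577, and 8 of 12 libraries correlated best with one of their own number, a hint from the data and not the design. With a replicate block, 3, 4, 3, 2, 0 and 1 of the 42 were called, and with numbers 3 and 5 joined in the block 3, 9, 7, 4, 0 and 1. Of all genes, the block called 469, 709, 424, 153, 13 and 34, and the joined block 400, 1407, 782, 268, 1 and 60. Under the block, the calls were DNASE2, GRN and ASAH1 with control ECs, DNASE2 (adjusted p = 2.34e-06, edgeR), CTSB, CTSD and CD63 with senECs, and DNASE2, CTSB and CTSD with EGCG-treated senECs, each against mono-culture. They were CTSB and CTSD (adjusted p = 0.0219 and 0.0158) for senECs, and IDS for EGCG-treated senECs, against control ECs. Of the second list, the block called 3, 4 and 4 against mono-culture and 0 otherwise, and the joined block 2, 10 and 6, with 2 for senECs against control ECs; PLD4 was among them in all 3 comparisons with mono-culture.

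Depth limits ACP5 and CD68, which had at most 14 and 16 counts per library, and the 3 libraries of each group leave adjusted p-values of small differences dependent on single libraries.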
